A study of Sus scrofa with 12 samples.

Results

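Tropomyosins, calponins, transgelins, the LIM proteins FHL2 and CSRP2, and the actin cross-linker ACTN1 were followed in porcine aortic valvular interstitial cells (VICs), the fibroblast-like cells of the valve leaflet. The 9 genes are TPM1, TPM2, CNN1, CNN2, TAGLN, TAGLN2, FHL2, CSRP2 and ACTN1. They were taken by name, as every probe set whose only gene symbol in the array annotation is a member, which gave 16 probe sets. All 16 passed the filter on low values, out of 17638 probe sets and 6014 genes tested on the array. TPM2 had 4 probe sets, TPM1 and ACTN1 had 3 each, and the other 6 genes had 1 each.

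RNA from 12 cell samples was hybridised to porcine 3' expression arrays, 3 biological replicates in each of 4 groups. Aortic valve leaflets of adult pigs had been digested with collagenase II to release the cells. The groups TGF-β1 8 h and TGF-β1 24 h were P2 cells, passaged 2 times, kept on plastic in medium 199 with 1% fetal bovine serum and exposed for 8 h or 24 h to 5 ng/ml of porcine TGF-β1. Untreated P2 cells had the same passage number, plastic and serum without TGF-β1, and all P2 cells were collected on day 3 of culture. P0 cells were freshly isolated and never cultured. The step from P0 to P2 therefore holds passage, plastic and serum together, and their shares in a change cannot be told apart.

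Actin filaments in a contractile cell carry tropomyosin along their length, a coiled-coil protein that governs which myosins and other proteins can reach the filament. Calponins and transgelins bind the same filaments and stabilise them, while α-actinin ties neighbouring filaments into bundles and anchors them at adhesions. LIM proteins dock on these structures through zinc-binding LIM domains, and some also enter the nucleus as transcriptional cofactors. In fibroblasts of many organs TGF-β is known to promote the myofibroblast state, in which these genes accompany α-smooth muscle actin in stress fibres, and stiff culture plastic is known to do so as well.

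Levels are given as log2 expression values of a probe set, by replicate 1, 2 and 3 in that order, and a difference of 1 on this scale is a doubling. Levels of different probe sets are not comparable with each other. Differences were tested with limma over all 12 arrays, two-sided, and a change was called at a Benjamini-Hochberg adjusted p under 0.05 over all 17638 probe sets. Errors of log2 fold changes are standard errors with 3 arrays in each group. Reporter control probe sets had a median of 3.07 and a 95th percentile of 4.58, which serves as the level of no signal. The medians of the 12 arrays spanned 0.0734, and replicates of a group correlated at r = 0.982 to 0.994 over the probe sets tested.

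Of the fibroblast and VIC markers, 10 of 12 were measured, and the mean of the list was 11.8 to 12.2 in all 12 arrays. Its genes moved within that mean: in untreated P2 cells against P0 cells 6 fell and 1 rose, with a median log2 fold change of -0.40. The calcium-binding S100A4 rose by 5.10, while THY1, a surface marker of fibroblasts, and DCN, the matrix proteoglycan decorin, were lower at -1.89 and -1.64. VIM, the intermediate filament of mesenchymal cells, was at 15.4 to 15.7 in every array. The desmin gene DES, a muscle intermediate filament, stayed near the control level, between 4.14 and 4.99. Markers of other cells gave signal as well. Of 8 measured smooth muscle markers 1 rose in untreated P2 cells against P0 cells and 3 fell, and the mean of that list was 6.43 to 6.60 in untreated P2 arrays and 6.92 to 6.93 in P0 arrays. Of 14 cardiac and skeletal muscle markers 4 were measured and 2 rose in untreated P2 cells against P0 cells, with list means of 4.88 to 5.70 in untreated P2 arrays and 4.29 to 4.50 in P0 arrays. They were ACTC1, the cardiac actin gene, at 5.82, 5.30 and 8.78 in untreated P2 cells against 3.31, 4.43 and 3.65 in P0 cells, and MYH7, a myosin heavy chain, by 0.52. Of 12 measured macrophage and monocyte markers 11 fell in untreated P2 cells against P0 cells, and the mean of that list was 6.29 to 6.87 in untreated P2 arrays and 9.03 to 9.58 in P0 arrays. The endothelial list, with 14 of 18 markers measured, averaged 5.54 in replicate 3 of the untreated P2 cells but 6.98 and 7.28 in replicates 1 and 2, and 7.14 to 7.36 in P0 cells. The part of these other cells in the results was not tested. In arrays of mixed RNA, fewer cells of a type and less RNA per cell cannot be told apart.

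The first comparison asked how the cells differ after culture from the state in which they left the valve. In untreated P2 cells 7 of the 9 genes rose against P0 cells, 1 fell and 1 was not called. In 8 of the 9 the groups did not overlap, beside 72% of all genes. Over all 6014 genes 42.1% rose and 24.2% fell, 66.3% in either direction. The rises of TPM1, TPM2, FHL2 and CNN2 were each between 2.94 and 3.25 on the log2 scale. CNN1, TAGLN and ACTN1 rose by 0.65 to 1.42. TAGLN2 fell, and CSRP2 did not pass the test. The median log2 fold change of the members was 1.42, beside 0.20 over all genes.

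TPM1 encodes α-tropomyosin, which in striated muscle regulates contraction and in other cells is found in stress fibres. It stood at 15.34, 15.34 and 15.18 in untreated P2 cells, against 12.43, 11.78 and 12.22 in P0 cells. All 3 cultured samples lay far above all 3 fresh ones, by 3.14 ± 0.144 on the log2 scale (adjusted p = 6.66e-09), which is 8.84-fold with a 95% confidence interval of 7.11 to 11.0. A second TPM1 probe set, Ssc.13956.2.S1_a_at, had 14.73, 14.70 and 14.45 in untreated P2 cells, against 10.47, 10.24 and 10.60 in P0 cells. Its change of 4.19 ± 0.121 (adjusted p = 2.29e-10) exceeded that of the first, Ssc.13956.1.S1_at. The remaining one, Ssc.12185.1.A1_at, was dim, at 5.98 to 6.28 in untreated P2 cells and 4.59 to 4.93 in P0 cells, and rose by 1.36 ± 0.257 (adjusted p = 0.00062). The 3 probe sets thus gave the same direction with unequal sizes, and which tropomyosin transcript variants each one detects was not analysed here.

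TPM2 encodes β-tropomyosin, a partner of α-tropomyosin in muscle. It stood at 14.31, 14.30 and 14.30 in untreated P2 cells, against 11.53, 10.59 and 11.42 in P0 cells. The cultured replicates were nearly identical (SD 0.00788) while the fresh ones spread widely (SD 0.511), with P0 replicate 2 the lowest. The rise was 3.12 ± 0.198 (adjusted p = 8.78e-08), or 8.72-fold with an interval of 6.46 to 11.8. Probe set Ssc.20571.1.S1_a_at rose by 3.23 ± 0.212 (adjusted p = 1.14e-07) and Ssc.20571.2.S1_at by 1.81 ± 0.239 (adjusted p = 3.73e-05). Probe set Ssc.9236.1.A1_at averaged 7.35 in untreated P2 cells and 4.27 in P0 cells, a P0 mean under the control level, so its rise is given as at least 6.81-fold (adjusted p = 7.92e-06).

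Among the calponins, CNN1 encodes basic calponin of smooth muscle, which restrains actomyosin and binds actin. It stood at 11.56, 11.73 and 11.61 in untreated P2 cells, against 10.46, 10.04 and 10.14 in P0 cells. Every cultured value was above every fresh one, and the rise was 1.42 ± 0.125 (adjusted p = 1.29e-06). CNN2 encodes the calponin of smooth muscle and non-muscle cells. It stood at 9.84, 9.66 and 9.79 in untreated P2 cells, against 6.89, 6.47 and 7.11 in P0 cells. Its rise was 2.94 ± 0.166 (adjusted p = 3.63e-08), 7.69-fold with an interval of 5.99 to 9.88. The log2 intervals were 2.58 to 3.31 for the CNN2 probe set and 1.15 to 1.70 for that of CNN1. Each gene had 1 probe set, so a difference between the genes and one between their probe sets cannot be told apart.

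The transgelin genes went in opposite directions. TAGLN encodes transgelin, also known as SM22α, an actin-binding protein used as an early marker of smooth muscle and myofibroblasts. It stood at 14.83, 14.74 and 14.75 in untreated P2 cells, against 13.75, 13.51 and 14.10 in P0 cells, a rise of 0.99 ± 0.136 (adjusted p = 4.98e-05). TAGLN2, a homologue made in many non-muscle cells including blood cells, stood at 13.23, 13.25 and 12.74 in untreated P2 cells, against 13.75, 13.78 and 13.75 in P0 cells. All cultured values lay below all fresh ones, and TAGLN2 fell by 0.68 (log2 fold change -0.68 ± 0.143, adjusted p = 0.00129). The macrophage and monocyte list fell in the same comparison by a median of -2.74 on the log2 scale, and its part in the TAGLN2 result was not tested.

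FHL2 is a LIM-only scaffold that binds integrins and acts as a transcriptional cofactor. It stood at 12.64, 12.59 and 12.60 in untreated P2 cells, against 9.13, 9.63 and 9.34 in P0 cells. The rise was 3.25 ± 0.135 (adjusted p = 3.29e-09), or 9.51-fold with an interval of 7.76 to 11.7. CSRP2, a LIM-only protein of the cysteine and glycine-rich family found on actin bundles and known from arterial smooth muscle, stood at 11.13, 11.38 and 10.48 in untreated P2 cells, against 11.41, 11.08 and 11.24 in P0 cells. These groups overlapped, and the log2 fold change was -0.24 ± 0.302 (adjusted p = 0.511), with an interval of -0.90 to 0.42. Untreated replicate 3 was the lowest of the 6 values.

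ACTN1 encodes the non-muscle α-actinin of stress fibres and focal adhesions. It stood at 13.45, 13.54 and 13.64 in untreated P2 cells, against 12.88, 12.96 and 12.86 in P0 cells, without overlap, and rose by 0.65 ± 0.108 (adjusted p = 0.000241). Its other bright probe set, Ssc.5941.1.S1_a_at, rose by 0.94 ± 0.133 (adjusted p = 6.32e-05). The dim probe set Ssc.5941.2.S1_at averaged 4.80 in untreated P2 cells and 4.58 in P0 cells, both close to the control level, and was not called (0.22 ± 0.119, adjusted p = 0.136), although it was after quantile normalization (0.32, adjusted p = 0.0280). Over all probe sets of the 9 genes, 13 of 16 rose and 1 fell, beside 33.6% and 25.8% of all probe sets tested.

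**Figure D1:**
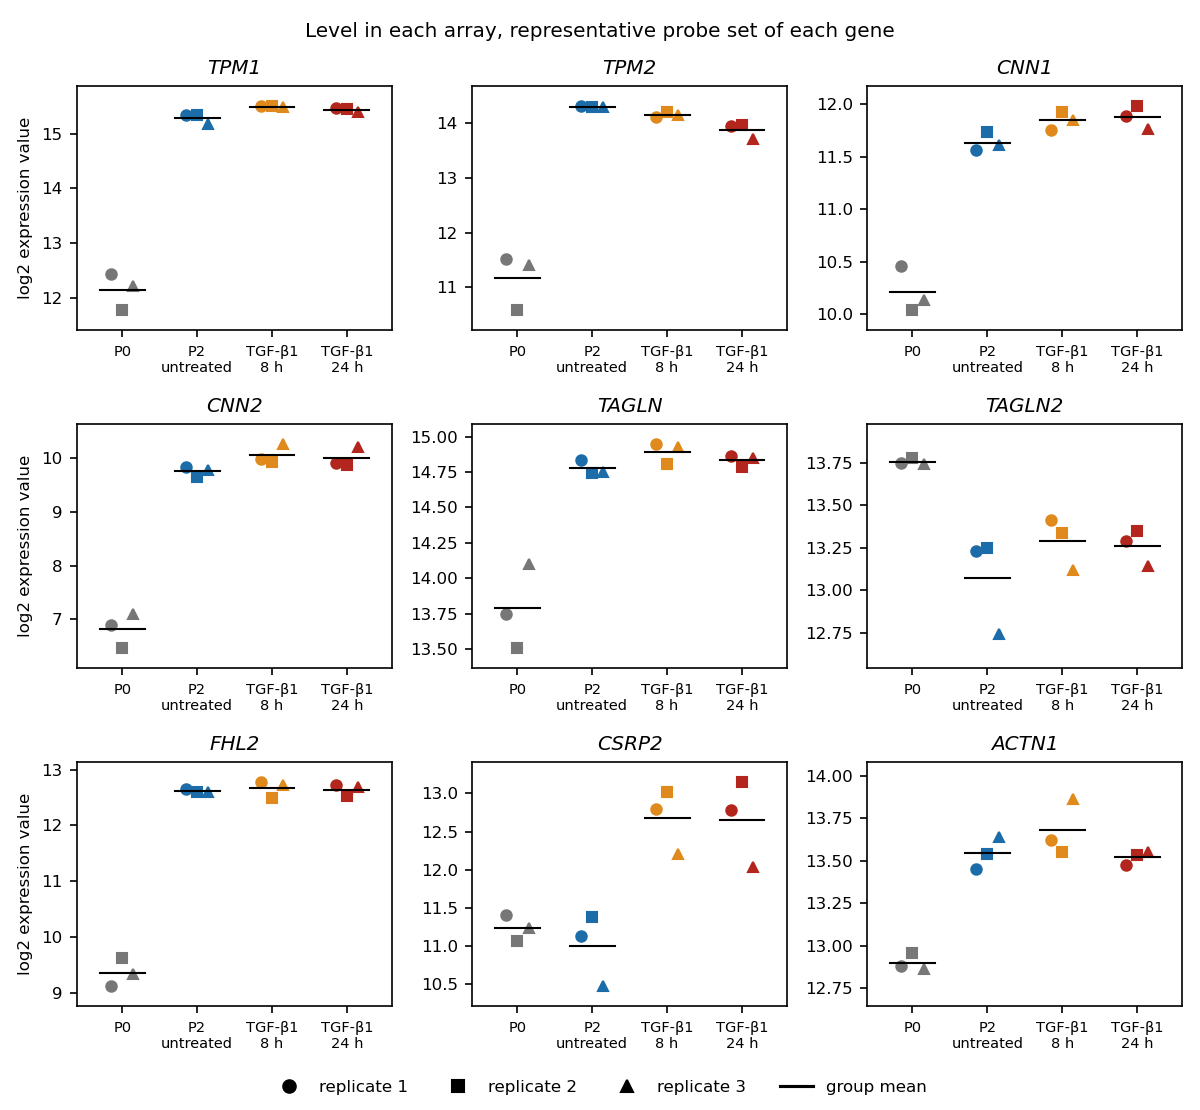
Log2 expression value of the brightest probe set of each gene (vertical axis, its own scale in each panel) in the 12 arrays by group, with points for replicates 1 to 3 and a bar at the group mean. The panels of 7 genes step up between P0 and untreated P2 cells, TAGLN2 steps down, to 12.74 to 13.25 in untreated P2 cells, and CSRP2 instead steps up with TGF-β1.

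The question of the next comparisons was what TGF-β1 adds to cultured cells. At 8 h and at 24 h CSRP2 was the only member called in the fit of all 12 arrays. That is 1 of 9 genes higher and 0 lower at each time by limma. In that fit, by the brightest probe set of each gene, CSRP2 was also the only 1 of the 9 with an unadjusted p under 0.05. Among the other probe sets, unadjusted p-values from limma under 0.05 came from TPM1, with 0.0132 and 0.0433 at 8 h and 0.0192 at 24 h, and from TPM2, with 0.0458 at 24 h. Over all genes 2.74% were higher and 2.84% lower at 8 h, and 4.42% were higher and 5.67% lower at 24 h. Both comparisons use the same 3 untreated arrays, so they are not independent of each other. With replicate number as a block among the 9 P2 arrays, more of the brightest probe sets had an unadjusted p under 0.05 by limma. At 8 h these were, besides CSRP2, TPM1 (0.0283), CNN1 (0.0327) and CNN2 (0.0147). At 24 h they were, besides CSRP2, TPM2 (0.00168), CNN1 (0.0193) and CNN2 (0.0391). Of these, besides CSRP2, only TPM2 at 24 h was called with the block.

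CSRP2 stood at 12.80, 13.02 and 12.20 after 8 h of TGF-β1 and 12.78, 13.14 and 12.04 after 24 h, against 11.13, 11.38 and 10.48 in untreated P2 cells. Every treated value was above every untreated one at both times. The rise was 1.68 ± 0.302 at 8 h (adjusted p = 0.0092), or 3.20-fold with an interval of 2.02 to 5.05. At 24 h it was 1.66 ± 0.302 (adjusted p = 0.00627), or 3.16-fold with an interval of 2.00 to 4.98. Ordered by upward change, CSRP2 ranked 20 of 17638 probe sets at 8 h and 56 at 24 h.

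The same replicate numbers tied P2 samples together, and within each number the CSRP2 rise was nearly the same. It was 1.67, 1.64 and 1.72 at 8 h in replicates 1, 2 and 3 (SD 0.0426), and 1.66, 1.76 and 1.56 at 24 h (SD 0.100). In absolute level replicate 2 was highest and replicate 3 lowest in each of the 3 P2 groups. The endothelial list had the same order. Its means were 6.86, 7.09 and 5.56 in 8 h samples and 6.68, 6.80 and 5.33 in 24 h samples. In untreated samples they were 6.98, 7.28 and 5.54. The macrophage and monocyte list had this order too, with 6.37, 6.87 and 6.29 in untreated samples. Its means were 6.30, 6.69 and 6.08 at 8 h and 6.09, 6.47 and 6.03 at 24 h. The cardiac and skeletal muscle list was instead highest in replicate 3 of each P2 group. The fibroblast and VIC list was lowest in replicate 2 of each P2 group. The smooth muscle list was highest in replicate 3 of the untreated and 8 h groups and in replicate 1 at 24 h. The part of these cell types in the CSRP2 levels was not tested. Without replicate 3 of all P2 groups, an alternative chosen after seeing the data, CSRP2 rose by 1.65 ± 0.180 at 8 h (adjusted p = 0.00644) and by 1.71 ± 0.180 at 24 h (adjusted p = 0.00197). Of the endothelial markers 1 of 14, the transcription factor gene ERG, was called higher with TGF-β1, by 1.10 at 8 h and 1.49 at 24 h. None was called lower. The median log2 fold change of the list was -0.004 at 8 h and -0.30 at 24 h. By limma 1 and 3 of its markers had an unadjusted p under 0.05 at these times. The list mean was lower at 24 h than in untreated cells in each replicate. Against P0 cells, CSRP2 was higher by 1.43 at 8 h (adjusted p = 0.00127) and by 1.41 at 24 h (adjusted p = 0.00137).

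**Figure D2:**
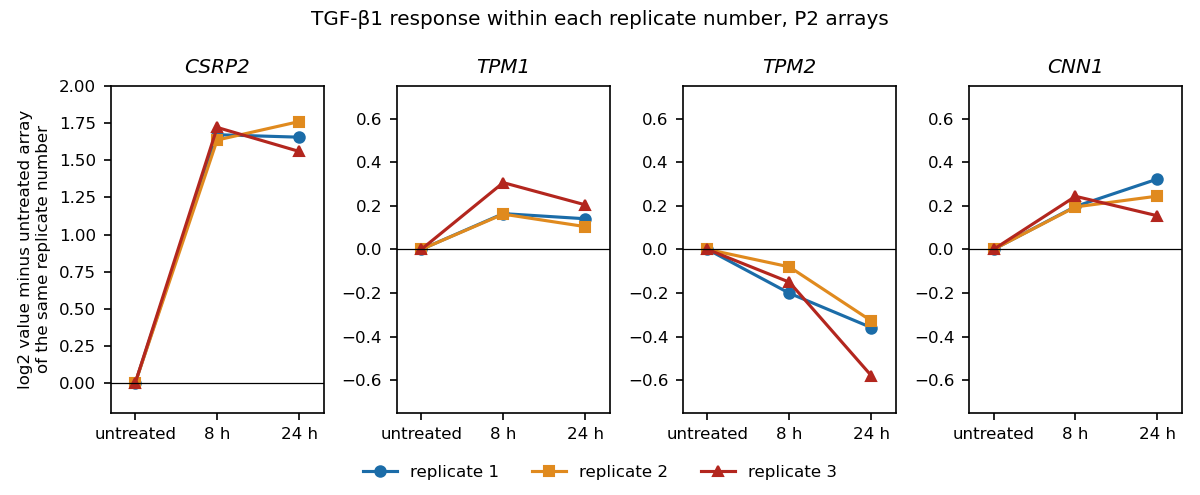
Log2 value minus that of the untreated array with the same replicate number (vertical axis) for CSRP2, TPM1, TPM2 and CNN1 without treatment and after 8 h and 24 h of TGF-β1, 1 line for each replicate number. The CSRP2 panel has a wider scale, and its lines reach 1.64 to 1.72 at 8 h, while the TPM2 lines lie between -0.33 and -0.58 at 24 h.

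None of the tropomyosin, calponin, transgelin, FHL2 and actinin genes passed the test between treated and untreated cells in the fit of all 12 arrays. TPM1 stood at 15.50, 15.50 and 15.49 at 8 h and 15.48, 15.44 and 15.39 at 24 h, against 15.34, 15.34 and 15.18 in untreated P2 cells. The treated values were all above the untreated ones, but the differences were 0.21 ± 0.144 (adjusted p = 0.525) and 0.15 ± 0.144 (adjusted p = 0.606). These values lie near the top of the scale, whose highest value on any array was 15.95. The second TPM1 probe set, Ssc.13956.2.S1_a_at, differed by 0.35 ± 0.121 at 8 h (adjusted p = 0.135) and by 0.33 ± 0.121 at 24 h (adjusted p = 0.124). It was not called with the replicate block in the 9 P2 arrays either (limma, adjusted p = 0.0571 at 8 h and 0.0540 at 24 h). The dim probe set Ssc.12185.1.A1_at had 6.45, 7.15 and 6.43 at 8 h, against 5.98, 6.28 and 6.03 in untreated cells, a difference of 0.58 ± 0.257 (adjusted p = 0.266). With replicate number as a block among the 9 P2 arrays, this last difference was called (± 0.144, adjusted p = 0.0388). In the same 9 arrays without the block, a fit chosen after seeing the data, it was not (± 0.279, adjusted p = 0.327). Of all probe sets 5.7% were higher at 8 h with the block, 1.9% in the 9 arrays without it and 2.53% in the fit of all 12 arrays.

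TPM2 had lower values under TGF-β1 in its 2 bright probe sets. The brighter stood at 14.11, 14.22 and 14.15 at 8 h and 13.95, 13.97 and 13.72 at 24 h, against 14.31, 14.30 and 14.30 in untreated P2 cells. The 3 groups did not overlap. The differences were -0.14 ± 0.198 at 8 h (adjusted p = 0.803) and -0.42 ± 0.198 at 24 h (adjusted p = 0.233), neither called in the fit of all 12 arrays. The standard error there includes the wide spread of TPM2 in P0 cells. In the 9 P2 arrays alone TPM2 fell by 0.42 at 24 h, with the replicate block (± 0.0887, adjusted p = 0.0160) and without it (± 0.0997, adjusted p = 0.0369). It was also called in the fit of the other 11 arrays when P0 replicate 2 was left out (adjusted p = 0.0295). Of all probe sets 10.2% fell at 24 h in the 9 arrays with the block, 3.59% in the 9 arrays without it and 4.22% in the fit of all 12. Probe set Ssc.20571.1.S1_a_at, at 13.83, 13.71 and 13.46 after 24 h against 14.18, 14.17 and 14.07 in untreated cells, also fell in the 9 P2 arrays, by 0.47, with the block (± 0.0962, adjusted p = 0.0142) and without it (adjusted p = 0.0394). The dim probe sets Ssc.20571.2.S1_at and Ssc.9236.1.A1_at differed by -0.04 and 0.05 at 24 h and were not called with or without the block. The replicates gave TPM2 differences of -0.36, -0.33 and -0.58 at 24 h. The smooth muscle list averaged 6.20 to 6.30 in 24 h arrays and 6.43 to 6.60 in untreated ones. Its median log2 fold change was -0.19. The cardiac and skeletal muscle list averaged 4.47 to 4.77 in 24 h arrays and 4.88 to 5.70 in untreated ones. Its median log2 fold change was nevertheless 0.09. By limma 0 of 8 and 0 of 4 of these markers were called, with 1 of each at an unadjusted p under 0.05. The mean of the fibroblast and VIC list was lower as well, at 11.79 to 11.86 in 24 h arrays and 11.89 to 12.16 in untreated ones. Of its 10 markers 1 was called higher and 1 lower. The part of these cell types in the TPM2 result was not tested.

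CNN1 stood at 11.76, 11.93 and 11.85 at 8 h and 11.88, 11.98 and 11.76 at 24 h, against 11.56, 11.73 and 11.61 in untreated P2 cells. Its values were above the untreated ones in every treated sample, with differences of 0.21 ± 0.125 (adjusted p = 0.443) and 0.24 ± 0.125 (adjusted p = 0.289), and it was not called under the block either. CNN2 stood at 9.99, 9.93 and 10.26 at 8 h and 9.91, 9.87 and 10.21 at 24 h, against 9.84, 9.66 and 9.79 in untreated P2 cells. Its differences were 0.30 ± 0.166 (adjusted p = 0.409) and 0.23 ± 0.166 (adjusted p = 0.453), with no overlap between groups. The intervals at 8 h reached 0.49 for CNN1 and 0.66 for CNN2 in the fit of 12 arrays. With the replicate block in the 9 P2 arrays they were 0.02 to 0.40 for CNN1 and 0.08 to 0.52 for CNN2. At 24 h the intervals with the block were 0.05 to 0.43 and 0.02 to 0.45. Adjusted p-values from limma with the block were 0.138 and 0.0844 at 8 h for CNN1 and CNN2. At 24 h they were 0.0777 and 0.126, so neither gene was called.

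TAGLN stood at 14.94, 14.80 and 14.93 at 8 h and 14.86, 14.79 and 14.85 at 24 h, against 14.83, 14.74 and 14.75 in untreated P2 cells. The groups overlapped, and the differences were 0.12 (interval -0.18 to 0.41) and 0.06 (interval -0.24 to 0.35). TAGLN2 stood at 13.42, 13.34 and 13.12 at 8 h and 13.29, 13.35 and 13.14 at 24 h, against 13.23, 13.25 and 12.74 in untreated P2 cells. It differed by 0.22 (interval -0.09 to 0.53) and 0.19 (interval -0.13 to 0.50), with replicate 3 the lowest in each of the 3 groups. FHL2 stood at 12.77, 12.50 and 12.73 at 8 h and 12.72, 12.52 and 12.69 at 24 h, against 12.64, 12.59 and 12.60 in untreated P2 cells. Its differences were 0.05 (interval -0.24 to 0.34) and 0.03 (interval -0.26 to 0.32). ACTN1 stood at 13.62, 13.55 and 13.86 at 8 h and 13.47, 13.54 and 13.55 at 24 h, against 13.45, 13.54 and 13.64 in untreated P2 cells, with differences of 0.13 (interval -0.10 to 0.37) and -0.02 (interval -0.26 to 0.21). The adjusted p-values of these 4 genes from limma lay between 0.500 and 0.936.

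In 5 of 9 genes (TPM1, TPM2, CNN1, CNN2 and CSRP2) the TGF-β1 and untreated groups did not overlap at 8 h, and the same number held at 24 h. Over all genes 28.1% did not overlap at 8 h and 30.1% at 24 h. The median difference of the members was 0.21 at 8 h and 0.15 at 24 h, beside -0.01 over all genes at each time.

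**Figure D3:**
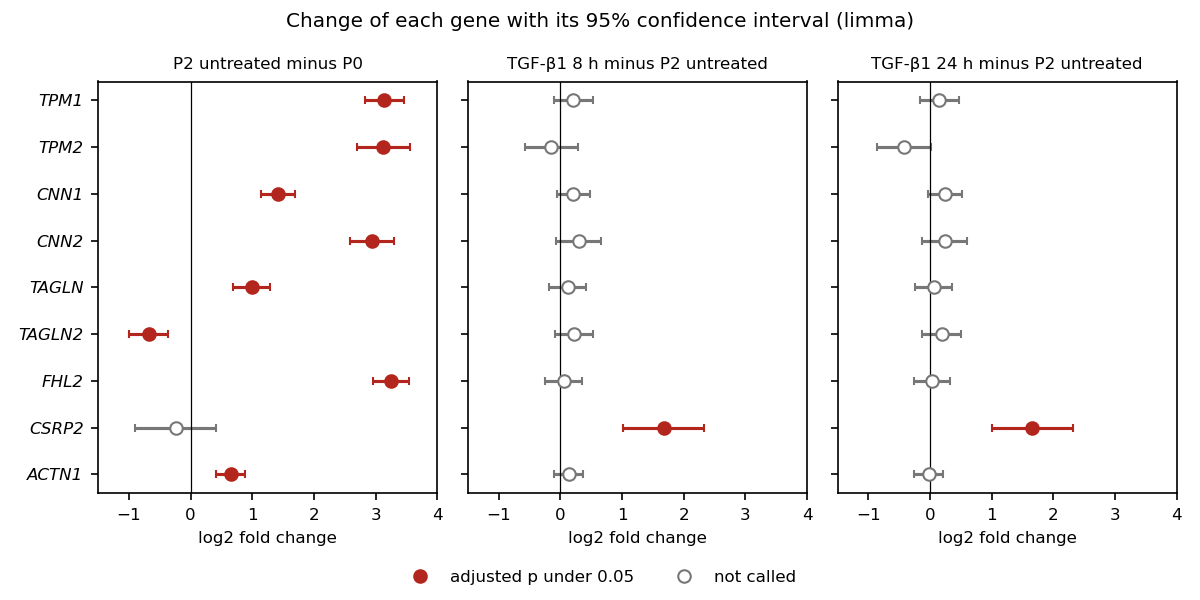
Log2 fold change with its 95% confidence interval from limma (horizontal axis) for the 9 genes, in untreated P2 cells minus P0 cells, TGF-β1 8 h minus untreated and TGF-β1 24 h minus untreated. Filled points have an adjusted p under 0.05: 8 of 9 genes in the first panel, and CSRP2 alone, at 1.68 and 1.66, in the others.

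Between 24 h and 8 h of TGF-β1, 0 of 9 genes and 0 of 16 probe sets were called by limma, and 0 genes had an unadjusted p under 0.05. Over all genes 0.283% were called, and over all probe sets 0.232%. CSRP2 differed by -0.02 ± 0.302, with an interval of -0.68 to 0.64, or -0.22 to 0.18 with the replicate block in the 9 P2 arrays. TPM2 differed by -0.28 ± 0.198 (adjusted p = 0.748). TPM1 and TPM2 were the 2 genes whose 24 h and 8 h groups did not overlap, beside 15% of all genes. With the replicate block in the 9 P2 arrays 2.44% of all probe sets and 0 of the members' were called by limma, beside 0.113% and 0 in those arrays without the block, though 3 TPM2 probe sets had unadjusted p-values of 0.00809 to 0.0150, Ssc.9236.1.A1_at at 0.40 and the 2 bright ones at -0.28 and -0.34.

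Ordered by mean level, the 9 genes fell into few patterns. TPM1, CNN2, TAGLN and FHL2 were highest at 8 h, followed by 24 h, untreated P2 and P0 cells. CNN1 was highest at 24 h, ACTN1 had untreated cells between 8 h and 24 h, and TPM2 was highest in untreated P2 cells. In these 7 genes only the last step, down to P0 cells, passed the test in the fit of 12 arrays. Neighbouring groups of TPM1 and TPM2 did not overlap at any step, and those of CNN1 and CNN2 did not overlap between treated and untreated cells, without an adjusted p under 0.05. TAGLN2 ran the other way, with P0 cells highest, and only the step from there to the 8 h group passed the test (-0.47, adjusted p = 0.0134), a call lost after quantile normalization (-0.29, adjusted p = 0.0926) and without 8 h replicate 3 (-0.38, adjusted p = 0.0593). For CSRP2 the 8 h and 24 h groups could not be ordered, both stood above P0 cells, and untreated P2 and P0 cells could not be ordered.

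**Figure D4:**
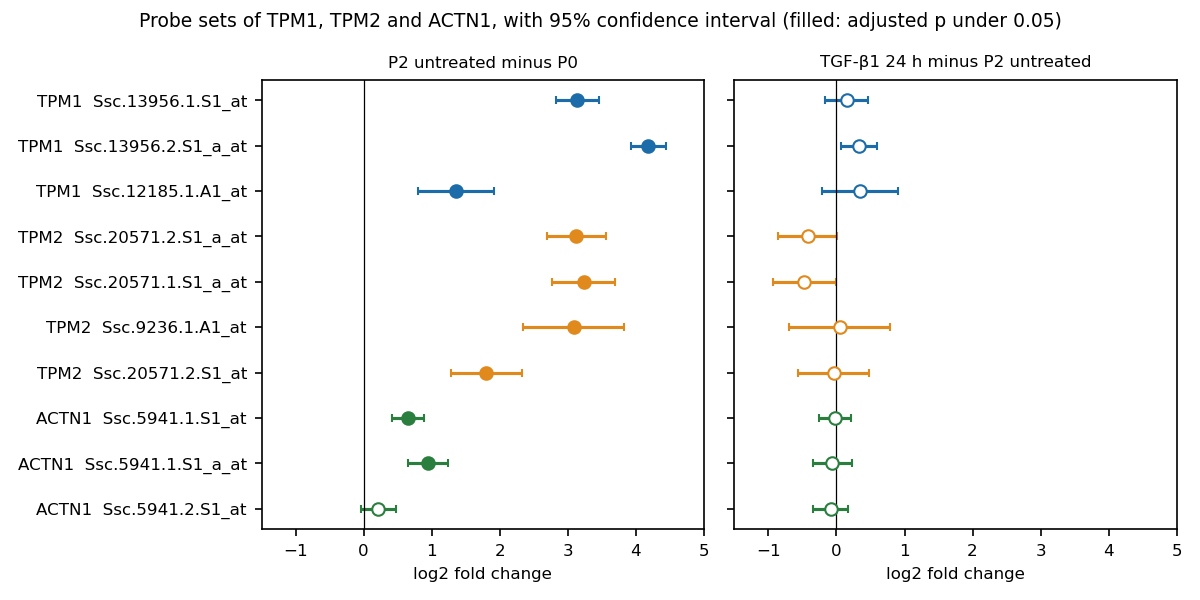
Log2 fold change with its 95% confidence interval (horizontal axis) for each probe set of TPM1, TPM2 and ACTN1, in untreated P2 minus P0 cells and in TGF-β1 24 h minus untreated P2 cells, filled where the adjusted p is under 0.05. In the first panel 9 of 10 probe sets are called, from 0.65 to 4.19, and in the second none is, with the lowest, a TPM2 probe set, at -0.47.

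Probe sets of one gene were compared over the arrays as a description. The bright pairs of TPM1, TPM2 and ACTN1 had r = 0.997, 0.999 and 0.941 over all 12 arrays, which share the step between P0 and P2 cells. Over the 9 P2 arrays the same pairs had r = 0.940, 0.975 and 0.480. The dim TPM1 probe set had r = 0.599 and 0.610 with the bright ones there, and the dim ACTN1 one 0.0363 and 0.161. Of the dim TPM2 probe sets, Ssc.20571.2.S1_at had r = 0.362 and 0.376 with the bright ones. Ssc.9236.1.A1_at had -0.315 and -0.434 with the bright ones, and -0.167 with the other dim one. The dim ACTN1 probe set Ssc.5941.2.S1_at had the same deposited value, 4.71, in all 3 samples taken at 24 h, as was so for 49 tested probe sets in all.

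The 9 members were also set beside each other over the 9 P2 arrays, which share culture and differ in treatment and replicate. CSRP2 had r = 0.912 with TPM1 and 0.888 with CNN1, and TPM2 had r = -0.518 with CSRP2 and -0.583 with CNN2. TPM1 and TPM2 had r = -0.388 over these 9 arrays. Over all 12 arrays, which share the step between P0 and P2 cells, they had r = 0.985. By the same measure over 6013 other genes, the 3 genes most like CSRP2 in the 9 P2 arrays were DNAJC24 (r = 0.993), RWDD3 (0.984) and CHSY1 (0.973). Over 12 arrays they were CHSY1 (0.970), UFM1 (0.946) and MAPK6 (0.931). TPM2 was most like SIGIRR (r = 0.974), AKR1CL1 (0.968) and RENBP (0.960) over the 9 P2 arrays. Over all 12 arrays it was most like another tropomyosin gene, TPM4 (r = 0.995), then VPS25 and CALD1 (both 0.994). Over the same 12 arrays TPM1 was most like CCDC34, MED6 and PSMA5. CNN1 was most like SSBP1, BID and EXOSC3 there, and CNN2 like PMPCB, UNC50 and CCDC34. TAGLN was most like CYP19A3, MRPS12 and ADAT2, FHL2 like LOC100521256, MTA2 and CS, and ACTN1 like SMAP1, DSE and PDHB. TAGLN2 was most like PGM2 (r = 0.976), SLC2A3 (0.971) and MYC (0.949).

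Other genes of the actin cytoskeleton were counted from lists chosen with earlier results of these data known. Of 134 listed genes 74 were measured. In untreated P2 against P0 cells 46 rose, 12 fell and 16 were not called, with a median log2 fold change of 0.60. That is 62.2% higher and 16.2% lower, beside 42.1% and 24.2% of all genes, whose median was 0.20. Of the relatives of the members, TPM4 rose by 0.88 ± 0.101 and TPM3 by 0.68 ± 0.105, while CNN3 (0.17) and TAGLN3 (-0.20) were not called. Of 15 other LIM domain genes 5 rose and 5 fell, with a median of 0.15. Among them were PDLIM7, a PDZ and LIM adaptor, with a rise of 2.46 ± 0.160, and PDLIM3, an α-actinin partner known from muscle Z-discs, at -4.50 ± 0.224.

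The actins and their motors mostly rose as well. Of 5 actin genes 4 rose, among them ACTA2, the α-smooth muscle actin gene, by 2.89 ± 0.159, while the enteric actin gene ACTG2 was lower at -1.90. Of 13 genes for myosin, caldesmon and their regulation 10 rose, with MYL9, a regulatory myosin light chain, at 2.62 ± 0.205 and the tropomyosin-binding CALD1 at 2.23 ± 0.113. Of 20 actin turnover genes 17 rose and 2 fell, the filament-severing GSN at -3.51 ± 0.361 and the pointed-end cap TMOD1 at -1.92 ± 0.140. Of 3 measured cross-linker genes besides ACTN1, 2 rose, FLNA by 2.51 ± 0.137 and FSCN1 by 1.53. Of 8 focal adhesion genes 5 rose, VCL by 1.64 among them, and TNS3 was lower at -1.61. Of 6 measured genes for the SRF pathway and related regulators 1 rose and 2 fell.

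**Figure D5:**
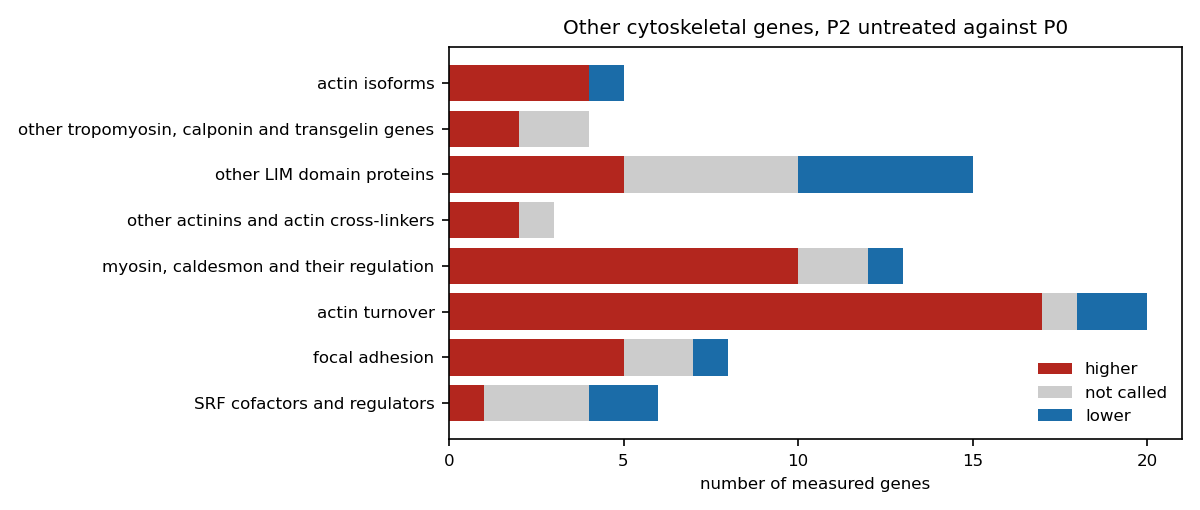
Number of measured genes (horizontal axis) in each of 8 lists of other cytoskeletal genes that were higher, not called or lower in untreated P2 cells against P0 cells by limma at an adjusted p under 0.05. Higher genes make up 17 of 20 in actin turnover and 10 of 13 in the myosin list, and 5 of 15 among other LIM domain genes.

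With TGF-β1, 3 of these 74 genes were higher and 3 lower at 8 h, 4.05% each way beside 2.74% and 2.84% of all genes. At 24 h 5 were higher and 4 lower, 6.76% and 5.41% beside 4.42% and 5.67% of all genes. Of the 5 actin genes 0 were called by limma at either time, with 0 at an unadjusted p under 0.05 at 8 h and 2 at 24 h. Of the 4 other tropomyosin, calponin and transgelin genes 0 were called at either time, and 0 had an unadjusted p under 0.05. TMOD1, which caps tropomyosin-coated filaments, was higher at 8 h (0.87 ± 0.140, adjusted p = 0.00596) and at 24 h (0.74 ± 0.140, adjusted p = 0.00718). The myosin phosphatase inhibitor gene PPP1R14A was lower, at -1.03 ± 0.214 at 8 h (adjusted p = 0.0184) and -1.40 ± 0.214 at 24 h (adjusted p = 0.00246). Of the other LIM domain genes 0 of 15 were called by limma at 8 h, with 4 at an unadjusted p under 0.05. At 24 h PDLIM4 was higher by 1.29 ± 0.225 (adjusted p = 0.00507), and PDLIM1 (-0.61 ± 0.106, adjusted p = 0.00507) and FHL1 (-0.55 ± 0.128, adjusted p = 0.0220) were lower. ITGA5, the fibronectin receptor subunit, was higher by 1.23 at 8 h and 1.82 at 24 h. The other genes called were TGFBR1 (0.63), SMAD3 (-0.82) and TEAD1 (-0.71) at 8 h, and ITGAV (1.01), TGFBR1 (0.62) and PFN2 (-0.52) at 24 h. ACTG2 in untreated P2 against P0 cells, TGFBR1 at 8 h and FHL1, a relative of FHL2, lay outside the rule for naming genes. They were named after their values were seen.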

How the data were processed

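The authors deposited log2 expression values per probe set, 1 column for each of 12 arrays. GCRMA was used, per the submitters' processing notes, and its version is not given in the sources used here. Scan dates and batches were not known, and no raw images were used. From 500 ng total RNA, biotinylated cRNA was hybridised, per the labels' protocols.

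The 64 reporter controls were left out, and probe sets over log2 4 in at least 3 arrays were tested. Group means were fitted with limma 3.58.1 in R 4.3.3 (8 residual and 3.75 prior degrees of freedom, median standard error 0.159), and 3 arrays a group limit the precision. The pipeline was tested on simulated data. Over the 4 comparisons, limma called 66% to 88% of simulated log2 changes of 1 and 9% to 20% of changes of 0.5. Most changes of the smaller size were therefore missed in the simulation. It changed 100 of 17638 probe sets by each size and drew noise without a link between replicates. In the data 10483 probe sets were called in untreated P2 against P0 cells, which makes the adjusted threshold less strict there. The simulated shares therefore do not give the share missed in these data. Of 23935 probe sets, 10069 carried 1 symbol, 198 several and 13668 none in the platform annotation, which can be old. A gene was represented by its brightest single-symbol probe set over the 12 arrays. Companion lists gave counts and at most 2 called genes of largest change each, and likeness gave the 3 highest Pearson correlations. The members and lists were chosen with earlier results of these data known.

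Same-numbered P2 samples deviated together from their group means, with all 9 correlations between 0.348 and 0.679, so a fit with replicate number as a block on the 9 P2 arrays was run beside the main one. The pairing comes from the replicate numbers in the labels. P0 samples did not share it (-0.0916 to 0.0158). Alternatives covered filters, normalization, array weights, the samples fitted, and each array left out.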

Additional observations from a re-analysis of the deposited data

How the results depend on the processing

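Over the 4 comparisons, 1528 of 1536 alternative fits of single member probe sets stayed on the same side of the threshold, 8 gained a call, none lost one, and no called value changed sign. Signs changed in 2, 7, 17 and 21 fits, called in neither setting, for culture, 8 h, 24 h and 24 h against 8 h. CSRP2 was called in all 25 alternatives at both times, with adjusted p from 0.000426 to 0.0424 at 8 h and 8.39e-05 to 0.0460 at 24 h, and leaving out 1 array gave 1.42 to 1.91 at 8 h and 1.40 to 1.97 at 24 h. The count of members lower at 24 h was 0, and it became 1, TPM2, in the 9 P2 arrays with the replicate block and without it (adjusted p = 0.0369, chosen after seeing the data) and without P0 replicate 2 (adjusted p = 0.0295), a range of 0 to 1 over single arrays left out. Within the 9 P2 arrays, the block changed the call of 1 member probe set, the dim TPM1 one at 8 h, and no other. ACTN1 Ssc.5941.2.S1_at was called in culture after quantile normalization (0.32, adjusted p = 0.0280). TAGLN2 lost its call against P0 after quantile normalization (8 h -0.29, adjusted p = 0.0926; 24 h -0.34, adjusted p = 0.0581) and, at 8 h, without 8 h replicate 3 (-0.38, adjusted p = 0.0593). The cause of these changes was not tested.

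Counts over all probe sets moved more. At 8 h the count was 894, against 2200 with the replicate block in P2 arrays, 519 with the 2 groups alone, 1463 with array weights, 265 without replicate 3 of all P2 groups, and 364 to 988 without single arrays. At 24 h it was 1498, against 3519, 631, 2274, 762, and 800 to 1398 in the same settings. For 24 h against 8 h it was 41, against 430, 0, 247, 12, and 4 to 49, and also 25 with no filter, 63 with limma-trend, 109 with the block in all 12 arrays and 20 in P2 arrays without the block. The 3 arrays of each group limit the precision, and the standard errors of the TPM1 and CNN1 differences were 0.144 and 0.125 in the fit of 12 arrays and 0.0779 and 0.0812 with the block in the 9 P2 arrays.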
